A study of Pimephales promelas with 15 samples.

Results

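The IDs described here are 98 gene identifiers whose normalised read counts (CPM, counts scaled to a library total of 1000000) stepped down with the concentration of 17α-ethinylestradiol (EE2) in whole fathead minnow larvae. They were chosen on their measured values from a table of 26150 IDs. An ID entered when its mean over 15 libraries was at least 1 CPM (19245 IDs), when its highest library at 100 ng/L lay below its lowest solvent library, and when its mean at 20 ng/L lay strictly between the solvent and 100 ng/L means. IDs with the prefixes scaf140 and scaf36, 142 of the 19245, were set aside by the rule. Of the remaining 19103 IDs, 124 had no overlap between solvent and 100 ng/L in this direction. The mean at 20 ng/L lay between the other means for 98 of these, at or above the solvent mean for 24 and at or below the 100 ng/L mean for 2. Ranking by log2((mean at 100 ng/L + 0.5)/(mean in solvent + 0.5)) was to keep at most 100, so all 98 were kept. Because the CPM values of every library chose these IDs, their lower levels are a description and were not tested.

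EE2 is the synthetic estrogen of oral contraceptives, and it reaches surface waters with treated wastewater. It binds estrogen receptors, which are ligand-activated transcription factors that raise the transcription of some genes and lower that of others. In fish its best known effect is the induction of vitellogenin, the egg yolk precursor protein made in the liver, also in males and juveniles. The files do not pair the IDs with gene names, and none of them (0 of 26150) matched the 64593 genes of the RefSeq table for assembly fPimPro1.hap1.1. No role can therefore be given for any of the 98.

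Pools of whole fathead minnows (Pimephales promelas) were sampled at 4 days post-hatch and their poly(A) RNA was sequenced. Exposure ran from within 6 hours of fertilization to 96 hours after hatching, in petri dishes with static renewal. Solvent controls received 0.01% DMSO, and the other groups received EE2 at nominal concentrations of 20 or 100 ng/L. Each of the 3 groups had 5 libraries, numbered 1 to 5, and the number of larvae in a pool, their strain and sex, and the DMSO level of the EE2 groups are not stated in the labels. In whole-body pools, fewer cells of a type and less RNA per cell cannot be told apart. Total counts ranged from 35585040 to 55722278 per library in solvent, from 37100443 to 73989987 at 20 ng/L and from 32674182 to 48433139 at 100 ng/L. In 2 groups a library stood apart. Solvent replicate 1 had the highest CPM of its group for 40.2% of the 19245 IDs, where the other 4 had it for 9.31% to 21.9%, and replicate 4 at 20 ng/L had it for 42.0%, where the other 4 had it for 7.22% to 18.8%. The number of IDs that meet the rule and the calls are given with and without these libraries below. The scaf140 and scaf36 IDs together took 0.429% to 0.480% of counts in solvent and 1.17% to 1.77% at 100 ng/L, which lowers the CPM of all other IDs slightly. Over all 19245 IDs the median log2 ratio of 100 ng/L to solvent was -0.04. At 20 ng/L the share of these prefixes was 0.468% to 0.629%, and the median log2 ratio to solvent was -0.03. How much of either median goes with that share was not tested.

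The 98 IDs had a median of 72.4% of their solvent mean at 100 ng/L, with quartiles of 57.8% and 80.9%, and the range ran from 4.92% to 91.3%. At 20 ng/L their median was 92.4% of the solvent mean, with quartiles of 86.0% and 95.4%. Over all 19245 IDs the medians were 97.3% at 100 ng/L and 97.9% at 20 ng/L. Most of the differences were modest: 14 of the 98 had 50% or less of their solvent mean at 100 ng/L, 44 had more than 50% and up to 75%, and 40 had more than 75%, of which 3 had more than 90%. The solvent means ran from 1.53 to 337 CPM with a median of 12.3 CPM, beside a median of 16.1 CPM over all 19245 IDs. Below 10 CPM there were 44 of the 98, from 10 to 100 CPM another 44, and at 100 CPM or more 10.

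The space between the groups was narrow for most of these IDs. The lowest solvent library exceeded the highest 100 ng/L library by a median factor of 1.047, from 1.002 to 1.54, and the factor was below 1.1 for 73 of the 98 and at least 1.5 for 2, scaf3.822 and scaf288.2. For 92 of the 98 the exact 95% Poisson intervals of those opposing libraries overlapped, intervals that cover counting error only. The 6 IDs without such an overlap were scaf10.101, scaf83.15, scaf10.500, scaf21.72, scaf67.121 and scaf112.31, picked out after their values were seen. Relative to level, such intervals narrow as counts rise. The share over all IDs was not computed, so nothing is read from the 92 and the 6. Among all 19245 IDs, 0.655% had all 5 libraries at 100 ng/L below all 5 solvent libraries and 0.307% had them all above. The rule used that contrast, so nothing is read from the presence of all 98 in the first share.

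**Figure D1:**
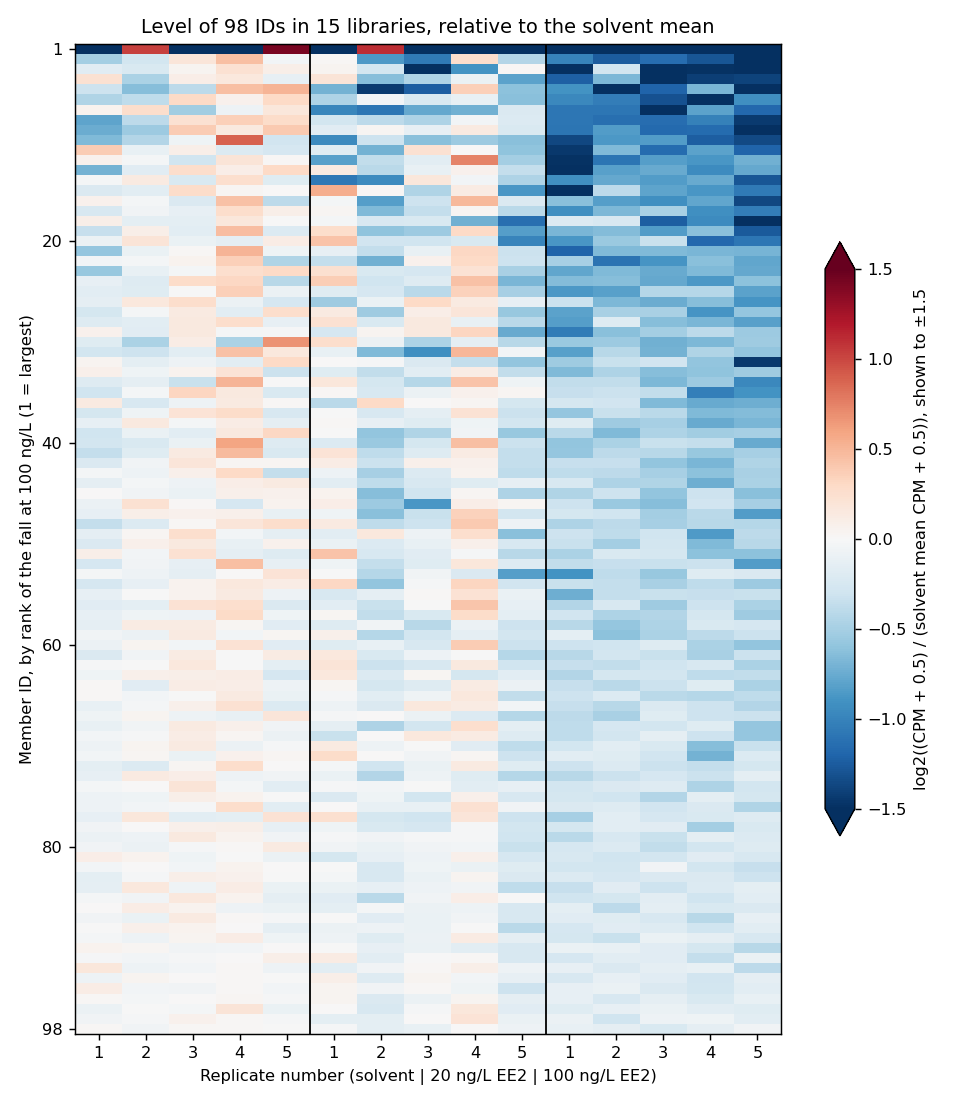
Log2 ratio of each library's CPM to the solvent mean CPM (0.5 added to both) for the 98 IDs, with 1 row per ID in order of rank and 1 column per library in 3 groups of 5. Colours reach their limit at 1.5 in either direction; the 100 ng/L columns are blue for every ID because the rule asked for it, while replicates 2 and 5 at 20 ng/L are bluer than replicates 1 and 4.

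The ID with the lowest ratio, scaf46.134, was high in a few libraries and low in the rest, not graded across them. In solvent replicates 1 to 5 it had 3.71, 76.4, 2.73, 2.39 and 100.6 CPM, at 20 ng/L 2.45, 80.6, 1.297, 2.41 and 1.84 CPM, and at 100 ng/L 1.99, 1.87, 1.47, 2.22 and 1.60 CPM. Solvent replicates 2 and 5 and replicate 2 at 20 ng/L thus stood far above the other 12 libraries, which all lay between 1.297 and 3.71 CPM. Its group means of 37.1 ± 47.6, 17.7 ± 35.2 and 1.83 ± 0.301 CPM (SD, n = 5 each) and its log2 ratio of -4.02 at 100 ng/L rest on those 3 libraries, and the ratio was -3.23 without solvent replicate 5. The ID with the preceding number on the same prefix, scaf46.133, was also among the 98 and did not share this pattern. It ran from 13.8 to 21.5 CPM in solvent, from 13.7 to 23.7 CPM at 20 ng/L and from 12.5 to 13.5 CPM at 100 ng/L.

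Graded differences began with scaf3.822, the second by rank. It had 2.64, 3.19, 4.59, 5.62 and 3.84 CPM in solvent replicates 1 to 5, then 4.04, 1.96, 1.65, 4.88 and 2.81 CPM at 20 ng/L, and 1.74, 1.38, 1.53, 1.34 and 0.378 CPM at 100 ng/L. Replicates 2 and 3 at 20 ng/L lay below every solvent library, and replicates 1, 4 and 5 lay within the solvent range. The means were 3.98 ± 1.17, 3.07 ± 1.37 and 1.27 ± 0.525 CPM (SD, n = 5 each), a log2 ratio of -1.34 at 100 ng/L. A second ID of that prefix, scaf3.809, followed at the fifth rank with 8.68, 6.80, 8.17, 15.02 and 15.7 CPM in solvent, 6.44, 3.71, 4.32, 14.0 and 6.92 CPM at 20 ng/L and 5.63, 2.91, 4.46, 6.57 and 2.50 CPM at 100 ng/L. Here replicate 4 was the highest library in both EE2 groups and second to replicate 5 in solvent, and the lowest solvent library exceeded the highest at 100 ng/L by a factor of only 1.03. Its log2 ratio was -1.21 at 100 ng/L and -0.58 at 20 ng/L.

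For scaf82.4 a single library at 100 ng/L nearly closed the space to solvent. Solvent replicates 1 to 5 had 58.5, 56.4, 67.7, 77.1 and 69.8 CPM, those at 20 ng/L had 67.7, 54.4, 21.7, 35.1 and 67.0 CPM, and those at 100 ng/L had 22.6, 54.3, 19.8, 23.2 and 17.4 CPM. Replicate 2 at 100 ng/L lay just under the solvent range, while the other 4 lay between 17.4 and 23.2 CPM. At 20 ng/L the libraries were spread out. Replicate 3 lay among those 4 libraries at 100 ng/L, and replicate 4 lay above them and well below the solvent range. Replicates 1 and 5 lay within the solvent range and replicate 2 just under it. The log2 ratio at 100 ng/L was -1.25, and -1.64 without replicate 2 of that group. With library sizes scaled by trimmed mean of M-values (TMM) the groups of scaf82.4 no longer met the rule. The ID with the next number, scaf82.5, also among the 98, had 24.9 ± 6.28 CPM in solvent, 23.2 ± 4.57 CPM at 20 ng/L and 17.6 ± 1.03 CPM at 100 ng/L (SD, n = 5 each). Across libraries within groups the log2 CPM of scaf82.4 and scaf82.5 had a correlation of 0.16, and that of scaf46.133 and scaf46.134 one of -0.17. Each was taken over 15 libraries after removing the group means.

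Among the IDs with more counts, scaf10.101 had 73.1, 77.0, 124, 105.4 and 123 CPM in solvent replicates 1 to 5, 72.5, 97.8, 85.8, 93.1 and 65.1 CPM at 20 ng/L and 51.0, 48.6, 40.2, 28.8 and 52.8 CPM at 100 ng/L. All 5 libraries at 20 ng/L lay above all 5 at 100 ng/L, and replicates 1 and 5 at 20 ng/L lay below every solvent library. The means were 100.5 ± 24.4, 82.8 ± 13.8 and 44.3 ± 9.89 CPM (SD, n = 5 each). The spread in solvent came with replicates 1 and 2 low and replicates 3 to 5 high.

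The same split within solvent, with replicates 1 and 2 below replicates 3 to 5, appeared in scaf17.139 and scaf6.24. Solvent replicates 1 and 2 also had the lowest totals of their group. They had 35585040 and 38841310 counts, where replicates 3 to 5 had 53545997 to 55722278. At 20 ng/L replicates 1 and 2 had the lowest totals too, but these IDs showed no such split there. A part played by depth was not tested. Levels of scaf17.139 were 6.69, 8.93, 14.0, 15.5 and 14.5 CPM in solvent, 9.78, 8.996, 8.51, 11.5 and 10.3 CPM at 20 ng/L and 5.36, 5.19, 5.12, 5.66 and 4.10 CPM at 100 ng/L. Those of scaf6.24 were 33.4, 38.5, 73.4, 62.3 and 74.4 CPM in solvent, 49.9, 57.4, 51.8, 62.1 and 47.9 CPM at 20 ng/L and 26.2, 31.3, 24.9, 25.2 and 18.3 CPM at 100 ng/L. For both IDs every library at 20 ng/L lay above the lowest solvent library and above every library at 100 ng/L, so the low end of the solvent range was set by replicates 1 and 2. The 20 ng/L mean of scaf6.24 was 95.5% of the solvent mean and its 100 ng/L mean was 44.6%. Under TMM scaling scaf6.24 no longer met the rule.

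A larger part of the difference was already present at 20 ng/L for scaf2.340. It had 12.6, 14.6, 8.31, 11.4 and 13.6 CPM in solvent, 5.88, 5.45, 6.92, 7.18 and 10.3 CPM at 20 ng/L and 5.45, 5.46, 2.89, 6.74 and 5.09 CPM at 100 ng/L. Apart from replicate 5, every library at 20 ng/L lay below every solvent library. The 20 ng/L mean was 59.05% of solvent and the 100 ng/L mean was 42.3%, which puts 20 ng/L at 71.0% of the way from the solvent mean to the 100 ng/L mean. For scaf94.32 the corresponding position was 63.3%, from 3.85, 4.56, 6.07, 12.2 and 5.11 CPM in solvent, 3.05, 5.02, 3.95, 4.19 and 3.94 CPM at 20 ng/L and 2.17, 3.27, 3.34, 2.42 and 2.18 CPM at 100 ng/L. Solvent replicate 4 lay above the other 14 libraries by a wide margin, and without it the log2 ratio of scaf94.32 at 100 ng/L went from -1.11 to -0.76.

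The other 3 of the 12 IDs with the lowest ratios were scaf15.165, scaf83.15 and scaf288.2. Levels of scaf83.15 were 26.4, 18.6, 21.5, 17.4 and 16.9 CPM in solvent, 17.7, 12.2, 23.7, 20.2 and 13.1 CPM at 20 ng/L and 7.07, 12.5, 8.82, 11.4 and 8.46 CPM at 100 ng/L. At 20 ng/L replicates 2 and 5 lay below the solvent range and the other 3 within it. For scaf15.165 the ranges were 1.26 to 2.39 CPM in solvent, 0.906 to 2.32 CPM at 20 ng/L and 0.268 to 1.04 CPM at 100 ng/L, with at least 13 counts in every library. For scaf288.2 they were 1.26 to 1.98 CPM, 0.728 to 3.14 CPM and 0.275 to 0.814 CPM, with a lowest count of 9. The widest separation relative to level, a factor of 1.54 between the lowest solvent and the highest 100 ng/L library, was thus measured in an ID near the level minimum. The log2 ratios of scaf15.165 and scaf288.2, at -1.23 and -0.98, depended on the constant added before taking logs and were -1.67 and -1.33 with 0.1 in place of 0.5.

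**Figure D2:**
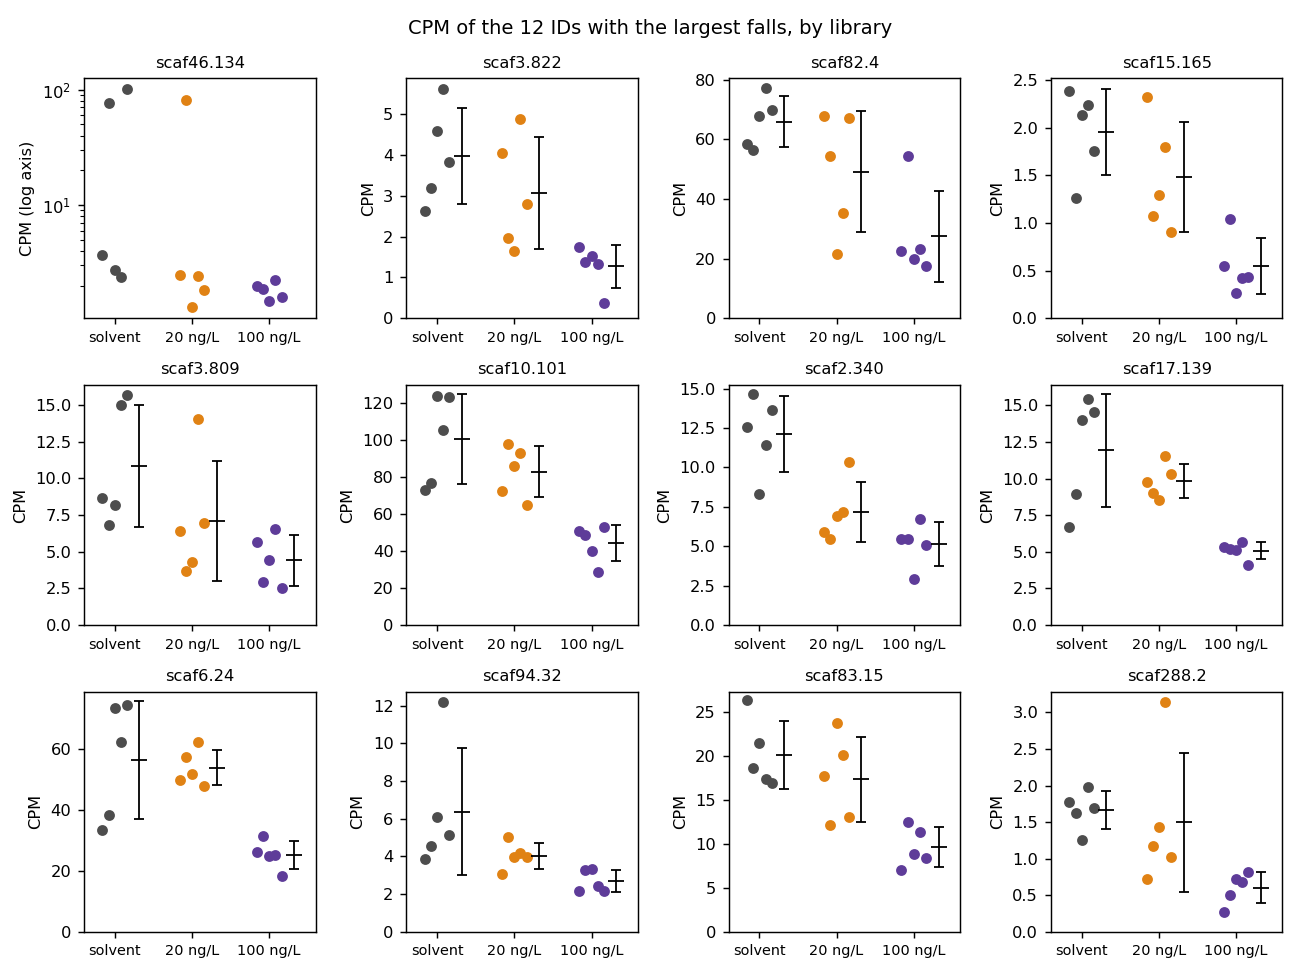
CPM in each of the 15 libraries for the 12 IDs with the lowest ratio at 100 ng/L, in order of rank, with 1 point per library (replicates 1 to 5 from left to right) and, beside the points, the mean with bars of 1 SD (n = 5). The panel of scaf46.134 has a log axis and no mean, and shows 3 of 15 libraries above 70 CPM and the others below 4 CPM.

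Of the 3 IDs with the highest CPM, which are not divided by transcript length, scaf21.72 had 337 ± 75.7 CPM in solvent, 320 ± 69.9 CPM at 20 ng/L and 204 ± 8.19 CPM at 100 ng/L (SD, n = 5 each). Its solvent libraries had 228, 311, 329, 400.2 and 416 CPM, those at 20 ng/L had 397, 288, 283, 391 and 241 CPM, and those at 100 ng/L lay between 196 and 213 CPM. The 100 ng/L libraries were tightly grouped, and both other groups each spanned a range wider than the distance between the solvent and 100 ng/L means. For scaf31.22 the means were 275 ± 29.2, 262 ± 55.9 and 213 ± 22.8 CPM (SD, n = 5 each), and for scaf53.75 they were 161 ± 9.93, 149.6 ± 12.2 and 136 ± 3.97 CPM (SD, n = 5 each). In these IDs the highest 100 ng/L library came within a factor of 1.02 and 1.04 of the lowest solvent library.

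At the other end of the ranking the differences were small. The last member, scaf18.468, had 102.1 to 107 CPM in solvent, 95.5 to 106 CPM at 20 ng/L and 89.9 to 101.7 CPM at 100 ng/L, a log2 ratio of -0.13 that was -0.09 under TMM scaling. The one before it, scaf8.203, had 29.2 to 31.8 CPM, 27.3 to 34.9 CPM and 24.5 to 28.9 CPM, a log2 ratio of -0.14. Among the 24 IDs left out because their 20 ng/L mean was at or above the solvent mean were scaf72.76 and scaf5.133. That mean was 108% of the solvent mean for scaf72.76 and 184% for scaf5.133. The first had 14.0 ± 7.26 CPM in solvent, 15.2 ± 7.43 CPM at 20 ng/L and 5.94 ± 1.27 CPM at 100 ng/L (SD, n = 5 each), a log2 ratio of -1.17 that would have placed it among the first 12. The second had 4.11 ± 1.65, 7.55 ± 8.90 and 2.01 ± 0.486 CPM (SD, n = 5 each), with its 20 ng/L mean carried by replicate 4 at 23.4 CPM.

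By their means at 20 ng/L most of the 98 IDs lay closer to solvent than to 100 ng/L. The rule chose on these same means and held the 20 ng/L mean between the others, so its place is described and was not tested. Their 20 ng/L mean was a median of 30.6% of the way from the solvent mean to the 100 ng/L mean, with quartiles of 17.2% and 46.0%. It was at or below the midpoint for 76 IDs and beyond it for 22. In steps of 20% of the way there were 28, 36, 25, 8 and 1 IDs, from the solvent end to the 100 ng/L end. The extremes were scaf6.994, with a mean of 4.64 CPM both in solvent and at 20 ng/L and of 2.96 CPM at 100 ng/L, and scaf97.10, with 7.46 CPM in solvent, 6.26 CPM at 20 ng/L and 6.01 CPM at 100 ng/L, at 82.4% of the way.

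Library by library, the values at 20 ng/L overlapped those of the other groups. None (0) of the 98 IDs had all 5 libraries at 20 ng/L below all 5 solvent libraries, where 0.0572% of the 19245 IDs did. With so low a share among all IDs, the 0 says nothing particular about the 98. In 81 the 20 ng/L libraries overlapped both other groups, and in 17 they overlapped solvent and lay wholly above 100 ng/L, where 1.8% of the 19245 IDs had every 20 ng/L library above every 100 ng/L library. The rule used these means too, so the shares are given side by side and nothing is read from them. For 32 of the 98 the highest library at 20 ng/L lay above the highest solvent library, and for 11 the lowest at 20 ng/L lay below the lowest at 100 ng/L. The shares over all IDs that would go with the counts of 81, 32 and 11 were not computed, so nothing is read from them.

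**Figure D3:**
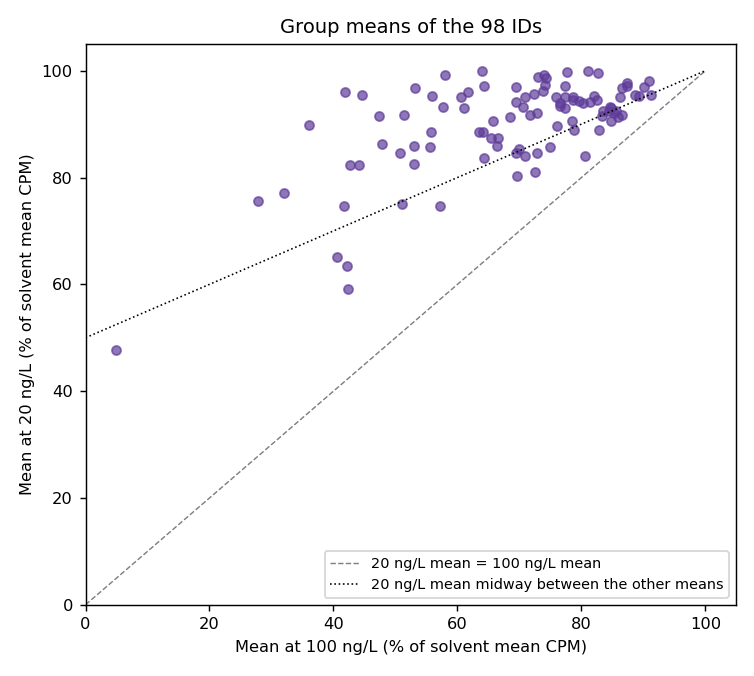
Mean CPM at 20 ng/L against mean CPM at 100 ng/L, each as a percentage of the solvent mean, with 1 point for each of the 98 IDs. The rule keeps all points above the dashed line of equal means and below 100%; 76 of them lie on or above the dotted line that marks the midpoint between solvent and 100 ng/L.

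What the rule did not use at 20 ng/L was the order of the single libraries, and there the IDs varied together. The median over the 98 IDs of the log2 ratio to the solvent mean was -0.02, -0.24, -0.11, 0.07 and -0.30 in replicates 1 to 5 at 20 ng/L. Replicates 2 and 5 were low, replicates 1 and 4 were at the solvent level, and the whole group spanned a range from the solvent medians, -0.09 to 0.08, almost to those of 100 ng/L, -0.50 to -0.36. In replicate 5 at 20 ng/L 95 of the 98 IDs were below their solvent mean, and 53 were at or below the highest 100 ng/L library. In replicate 4, 37 were below the solvent mean, and 9 were at or below the highest 100 ng/L library. The rule held each 20 ng/L mean below the solvent mean. Shares over all IDs for these counts were not computed, so nothing is read from the counts. The same order, at smaller size, was seen over all 19245 IDs, whose medians in these 5 libraries were -0.01, -0.07, -0.05, 0.04 and -0.11. That part of the order moves with the scaling of the libraries. Under TMM scaling the medians of the 98 in replicates 1 to 5 at 20 ng/L were -0.04, -0.19, -0.09, -0.01 and -0.21. They kept the same order over a narrower range. The solvent medians then ran from -0.18 in replicate 1 to 0.07 in replicate 3. Those at 100 ng/L ran from -0.46 in replicate 4 to -0.29 in replicate 2. Replicates 2 and 5 at 20 ng/L thus lay closer to solvent replicate 1 than to any 100 ng/L library. The span almost to 100 ng/L was that of library sizes alone. The share of library scaling in the pattern of the 98 was not tested.

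**Figure D4:**
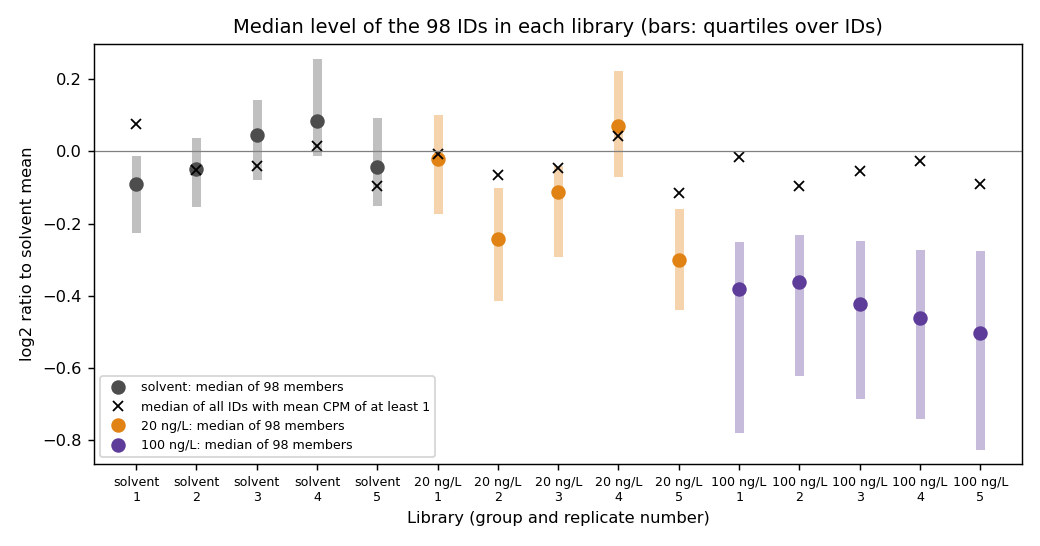
Median (points) and quartiles (bars) over the 98 IDs of the log2 ratio of CPM to the solvent mean CPM in each of the 15 libraries, with the median over all 19245 IDs as crosses. The 100 ng/L points lie between -0.50 and -0.36, and the 20 ng/L points run from -0.30 in replicate 5 to 0.07 in replicate 4.

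Replicate 4 was the highest solvent library for 42 of the 98, beside 21.9% of all 19245 IDs, and the highest at 20 ng/L for 49, beside 42.0% of all IDs. For 29 it was both, 29.6% of the 98 beside 17.6% of all IDs, but the other pairs of groups had the reverse order, with 6.12% beside 10.3% for solvent and 100 ng/L and 13.3% beside 19.9% for 20 and 100 ng/L. Counting any replicate number, the same number was highest in solvent and at 20 ng/L for 37.8% of the 98 and 37.0% of all IDs. For solvent and 100 ng/L it was 15.3% beside 38.0%, and for 20 and 100 ng/L 23.5% beside 33.9%. The rule used the highest 100 ng/L library, so these shares are only given side by side. Totals of replicate 4 were the largest at 20 ng/L, 73989987 counts, but not in solvent. Solvent replicate 1, the highest of its group for 40.2% of all IDs, was the highest for 6 of the 98 and the lowest for 36. Over all IDs it was also the lowest of its group for 26.6%, the largest share among the solvent libraries.

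After removing group means, log2 CPM had a mean pairwise correlation of 0.25 between the 98 IDs over the 15 libraries, and 0.03 between all 19245 IDs. By group it was 0.17 among solvent libraries, 0.39 within the 20 ng/L group and 0.05 within the 100 ng/L group, beside 0.03, 0.06 and 0.02 over all IDs. With TMM scaling the values for the 98 were 0.30, 0.16 and 0.10, and those over all IDs were below 0.001. The higher figure at 20 ng/L than in solvent was thus present under library size alone and turned around under TMM. These correlations describe 5 libraries a group, and the IDs share those libraries, their depth and a rule that looked at each of them. Individually, 50 of the 98 had a correlation above 0.5 with the mean of the other members and 4 were below 0, where 17.3% of the 19147 other IDs were above 0.5 and 40.7% below 0. Under TMM 43 of the 98 were above 0.5 and 6 below 0, where 19.3% and 50.7% of the other IDs were. Within the 20 ng/L libraries alone 70 of the 98 were above 0.5, beside 41.8% of the other IDs. Under TMM 50 were above 0.5 there, beside 23.0%. Over all 15 libraries, the IDs nearest to the shared pattern were scaf53.75 (0.91), scaf77.13 (0.89) and scaf6.1005 (0.88). Those farthest from it were scaf46.134 (-0.37) and scaf2.340 (-0.34), both among the 12 with the lowest ratio.

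The 98 IDs were spread over many prefixes. No coordinates are given for the IDs, so only the prefix and the number in each name were compared. How many prefixes a random draw of 98 IDs would carry was not computed. They carried 66 of the 409 prefixes found among the 19245 IDs, and 47 of these prefixes held 1 member each. The most members were under scaf8, with 6 of 725 IDs, and scaf10, with 5 of 505, shares of 0.828% and 0.990% beside 0.509% of all 19245 IDs. Under scaf53 there were 3 of 152. Among the members 2 pairs had consecutive numbers, the scaf46 and scaf82 pairs described above. The number of such pairs in a random draw was not computed, so nothing is read from the 2. The 125 other IDs with a number 1 above or below a member and at least 1 CPM had a median log2 ratio of -0.06 at 100 ng/L and -0.02 at 20 ng/L, beside -0.04 and -0.03 over all IDs. Of these neighbours 68, or 54.4%, had a lower mean at 100 ng/L than in solvent, where 57.7% of all IDs did. Under TMM scaling the order was the reverse, with 52.0% of the neighbours and 49.7% of all IDs lower at 100 ng/L.

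Fitted across all tested IDs with edgeR's quasi-likelihood method, 2 of the 98 were called lower at 100 ng/L than in solvent at an adjusted p below 0.05, scaf17.139 and scaf10.101, where 0.0091% of 21976 tested IDs were. Those 2 were the only IDs called lower in that comparison. At an unadjusted edgeR p below 0.05 there were 88 of the 98 and 5.44% of all tested. DESeq2 called 17 of the 98 (0.109% of all) and limma-voom called 1 (0.00455% of all). Under edgeR with library size only there were 4 (0.0182% of all). With the replicate number as a block, edgeR called 0 of the 98 and 1 other ID lower (0.00455% of all), and without replicate 4 at 20 ng/L it called 1 of the 98 (0.00453% of all). Without solvent replicate 1 edgeR called 35, where 2.42% of 22194 tested IDs were called. All 98 passed the filter on low counts, which their level made likely. The rule used this contrast, so these counts describe how far the fitted spread allowed a call and are no evidence for it.

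Neither comparison with 20 ng/L gave a call among the 98 in the edgeR fit. Against solvent 0 were called lower at 20 ng/L (0% of all tested), 3 had an unadjusted edgeR p below 0.05 (0.282% of all), and DESeq2 and limma-voom called 0. Between 100 and 20 ng/L 0 were called lower (0% of all), 50 had an unadjusted edgeR p below 0.05 (5.45% of all), DESeq2 called 4 (0.0728% of all), edgeR with only those groups in the fit 2 (0.0139% of 21555) and limma-voom 0. The 3 comparisons share libraries, and the values of each are given side by side for that reason.

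The authors' deposited table on the higher concentration against solvent listed 75 of the 98 IDs. Of them 40 were lower there at an adjusted p below 0.05, where 655 of its 15569 IDs (4.21%) were. It covers the contrast that the rule used, so this count is a description and no separate evidence. The edgeR fit described above called only 2 of 21976 IDs lower in that contrast, and the reason for the difference was not tested. The log2 fold changes of the 75 in the authors' deposited table ran from -1.39 to -0.13 with a median of -0.46. The authors' deposited table on the lower concentration listed the same 75, of which 0 were called lower (0% of its IDs), and their median log2 fold change was -0.14, from -0.79 to 0.00.

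Which IDs meet the rule depended on single libraries. Without solvent replicate 1, 863 IDs met it, 97 of the 98 among them, and 12 of the 98 were then in the first 100. Without solvent replicate 5, 345 met it, and 37 of the 98 were in the first 100. Without solvent replicate 2 there were 172 and 63. Without replicate 4 at 20 ng/L, 112 met it and 87 of the 98 were in the first 100. Leaving out any 1 library at 100 ng/L gave between 134 and 186 IDs, with 49 to 73 of the 98 in the first 100. Leaving out a solvent or 100 ng/L library can only relax the condition on overlap, so longer lists follow from the rule, but they differed in length by library. Without any 1 of the 15 libraries, 67 of the 98 always met the rule. For the 98 an omission could break only the place of the 20 ng/L mean or the level minimum. Such counts therefore do not measure how steady the fall at 100 ng/L was. Scaling by TMM in place of library size left 50 IDs, 45 of them among the 98. That group held 11 of the 14 IDs at 50% or less of their solvent mean and 9 of the 40 above 75%. Under every one of these 15 omissions and both composition scalings, TMM and relative log expression (RLE), 32 of the 98 met the rule, among them 9 of the 12 with the lowest ratio.

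**Figure D5:**
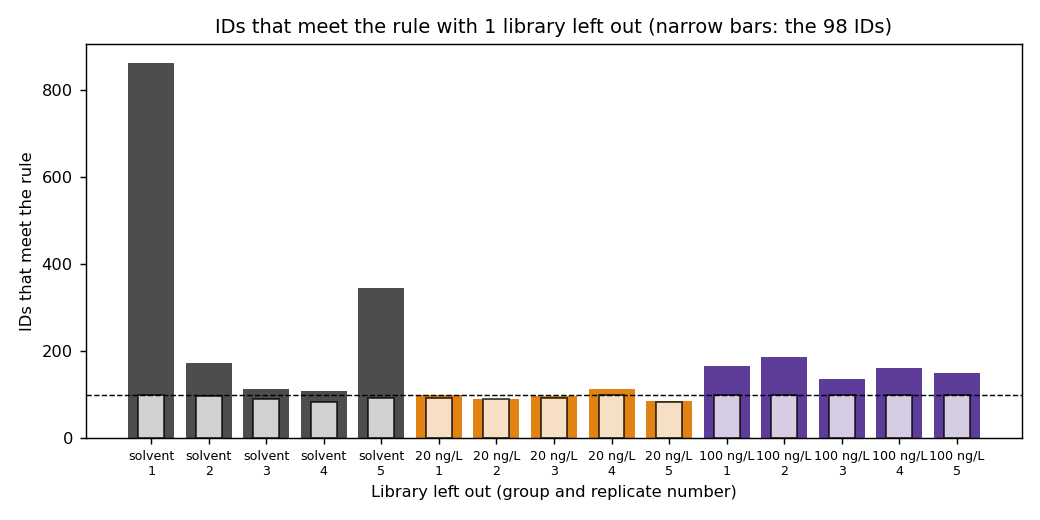
Number of IDs that met the rule when 1 of the 15 libraries was left out (wide bars, coloured by the group of that library) and how many of them were among the 98 (narrow pale bars), with the dashed line at 98. The count reached 863 without solvent replicate 1 and 345 without solvent replicate 5, and stayed between 84 and 186 without any other library.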

How the data were processed

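The submitters' processing notes name Trimmomatic 0.38, StringTie 1.3.4d and edgeR 3.26.5. Not given in the sources used here are aligner, build, annotation and strand setting, so overlapping or antisense genes cannot be told apart. Counts in the authors' deposited table are whole numbers for each ID in each library and may be estimates, since StringTie works from coverage. Another 2 tables, on each EE2 level against solvent, hold per the file headers a signed fold change, log2 fold changes and log2 mean CPM, p-values with adjusted p-values, and an F score.

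CPM is a count divided by its column total, times 1000000. The 98 IDs, the rule and the tests were chosen with earlier results of these data known. Named were the first 12, the last 2 and the 3 with the highest solvent CPM. Another 2 that failed only on the 20 ng/L mean were named, as was every ID called lower at 100 ng/L. Others were singled out after their values were seen. In R 4.3.3, edgeR 4.0.16 (filterByExpr with minimum count 10 and total 15, TMM, robust quasi-likelihood, group means, all 15 libraries, Benjamini-Hochberg threshold 0.05) was checked on simulated data. DESeq2 1.42.0 and limma 3.58.1 (voom) were alternatives, beside scaling, filters, blocks and omitted libraries. Nothing in the labels ties replicates to separate cultures, and p-values then reflect only the variation among these libraries. Over all tested IDs, same-numbered libraries deviated together in the comparisons with solvent, a pairing from the data and not the labels. Correlations were 0.11 to 0.62 at 20 ng/L and 0.23 to 0.39 at 100 ng/L. Between 100 and 20 ng/L the lowest was 0.08. Computed separately over the 98 IDs, the correlations with solvent ran from -0.32 to 0.79 at 20 ng/L and from -0.13 to 0.24 at 100 ng/L. That measure over the 19245 IDs ran from 0.06 to 0.67 and from 0.25 to 0.51. Python 3.11.15 with matplotlib 3.10.9 drew the figures.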

Additional observations from a re-analysis of the deposited data

Results flagged for a closer look

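In 81 groups of 5 libraries (the named IDs and the member medians), 5 had a library far from the other 4, where chance flags about 1 in 20, or 4.05 of 81 if groups were independent. Replicate 2 at 20 ng/L had 80.6 CPM of scaf46.134 where the others had 1.297 to 2.45 CPM. Replicate 2 at 100 ng/L had 54.3 CPM of scaf82.4 where the others had 17.4 to 23.2 CPM. Solvent replicate 4 had 12.2 CPM of scaf94.32 where the others had 3.85 to 6.07 CPM. At 20 ng/L, replicate 4 had 23.4 CPM of scaf5.133, which is outside the 98, where the others had 2.35 to 5.28 CPM. The same library had 359.0 CPM of scaf31.22 where the others had 220.4 to 254.9 CPM.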

How the results depend on the processing

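The number of IDs that met the rule was 98 with library sizes alone, 50 with TMM or RLE scaling, and 84 to 863 with 1 library left out. With TMM, RLE or 1 library left out, 45, 44 and 12 to 92 of the 98 were in the first 100. Other level minimums and added constants left both counts within 1.5 times. Members called lower at 100 ng/L numbered 2 by edgeR with all libraries, 17 by DESeq2, 1 by limma-voom, 4 with library size only, 0 with only the compared groups and 0 with the replicate block, and 0 to 35 with 1 library left out (0 without solvent replicate 3, 4 or 5, without replicate 1 at 20 ng/L, or without replicate 1, 3, 4 or 5 at 100 ng/L; 1 without replicate 2 or 4 at 20 ng/L). Of all tested IDs, 2.42% were called lower at 100 ng/L without solvent replicate 1 and 0% to 0.027% without any other library. With only the compared groups 0% were. Between 100 and 20 ng/L, DESeq2 called 4 (0.0728% of all) and the fit with only those groups called 2 (0.0139% of all), against 0. The block called 0 there and for 20 ng/L against solvent. Under TMM the member median was -0.18 in solvent replicate 1 and -0.29 in replicate 2 at 100 ng/L, and the mean pairwise correlation at 20 ng/L went from 0.39 to 0.16 (chosen after seeing the data). The cause was not tested. At 100 ng/L against solvent no named ID changed direction under the alternatives run. The rule left these IDs no overlap between those groups, so omitting a library or changing the added constant could not reverse it. Their log2 ratios moved by more than 1 SD of solvent in 8 cases under other settings. Directions at 20 ng/L were less steady. In the edgeR fit, which scales by TMM, 94 of the 98 had a negative log2 fold change at 20 ng/L against solvent. The named ID scaf6.994 did not, at 0.01. The neighbours' median stayed between -0.06 and -0.02. Low counts, down to 9, limit the IDs near 1 CPM.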
